A study of Homo sapiens with 30 samples.

Results

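PPP1R15A, also known as GADD34, is the stress-induced regulatory subunit that brings protein phosphatase 1 (PP1) to the translation factor eIF2 alpha. The data are shares of reads that carry G in place of A at listed positions of messages from HEK 293T, an established line of human embryonic kidney origin, collected 60 h after transfection with adenosine deaminases that are directed by RNA guides. Of the 382978 listed positions, 82 lie in exons of PPP1R15A (ENSG00000087074.7, GENCODE release 29), and these 82 are described here. The gene was selected on the measured share at 1 of them, the Q584R position, which is high on average over the deaminase libraries, so its level is given as a description without a test, whereas contrasts between constructs were not used in the choice.

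The series has 30 samples of poly(A) RNA. In 16 libraries the deaminase domain (DD) of ADAR2 or of ADAR1 was joined to MCP, a phage coat protein with affinity for MS2 hairpins. Every such fusion was sent to the nucleus by a localisation signal (NLS) or out of it by an export signal (NES), had the E-to-Q substitution (E488Q in ADAR2, E1008Q in ADAR1) or the wild-type domain, and was expressed with or without an MS2 adRNA. Full-length ADAR2 made up 4 libraries, E488Q or wild type, each with or without a GluR2 adRNA. Cas13b-ADAR2 DD (E488Q) made up 2 libraries, with or without a Cas13b gRNA expressed from a U6 promoter. The 7 control columns used were GFP, each of the 3 guides alone, and runs 2, 3 and 4 of 1 untransfected library. Each condition has 1 library, so the spread between replicate cultures is unknown, and any test below takes its spread from libraries of different constructs. Every deaminase group is a transient overexpression, and all groups are of 1 cell line. The tables hold shares and no read counts or expression levels, so the depth at a position, the markers of the cells and the amount of PPP1R15A message in a library were not available for checking.

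In the integrated stress response, kinases that sense stress phosphorylate eIF2 alpha, which lowers general translation while ATF4, a transcription factor, is made in greater amounts. PPP1R15A is induced by this programme and closes the loop, since its complex with PP1 removes the phosphate from eIF2 alpha. Its C-terminal part holds the short docking motif for PP1, and its 5′ UTR holds upstream reading frames that bear on translation of the main one. ADAR enzymes turn adenosine into inosine in double-stranded RNA, and inosine is read as G by the ribosome and in cDNA.

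The gene lies on the plus strand of chromosome 19 between positions 48872392 and 48876057 (GRCh38) and has 3 exons. Its main transcript is 2378 nt long and codes for 674 residues. Of the 82 positions, 5 lie in the 5′ UTR, 77 in coding sequence and 0 in the 3′ UTR, and 0 were listed in introns. An A-to-G change would alter the amino acid at 45 of the coding positions and would be synonymous at 32. Arginine to glycine was the most frequent recoding with 10 positions, followed by glutamate to glycine with 8, lysine to arginine with 7, and glutamine to arginine and serine to glycine with 4 each. None of the positions overlaps an exon of another gene, and no transcript of another gene holds the same 31 nt around any of them. At 1 position the surrounding 51 nt resemble another place of the same transcript with 5 or fewer mismatches, whereas Q584R has at least 26 mismatches to any other place.

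The windows that carry the results are shown as 21 nt of the transcript from 5′ to 3′ (GENCODE release 29, T for U), with the edited adenosine in capitals. The first 8 are the positions with the highest mean share gained over untransfected cells. They differ in the bases next to the adenosine, and 6 of them have G on its 3′ side. This is close to the share in the whole gene, where 60 of the 82 listed adenosines (73.2%) do.
Q584R, exon 3, chr19:48875699-48875699: ccctgggagcAgcttgctcgg
S253S, exon 2, chr19:48873992-48873992: cccgatcttcAggctccgacc
E369E, exon 2, chr19:48874340-48874340: cagatgaggaAgagggagaag
R526G, exon 2, chr19:48874809-48874809: ggctcctcctAggctgcccct
T655T, exon 3, chr19:48875913-48875913: ctgtggccacAccttcccgct
E492E, exon 2, chr19:48874709-48874709: agacagaggaAgaggaagctg
5′ UTR, exon 1, chr19:48872469-48872469: aagacgctgcAcgaccccgcg
K517R, exon 2, chr19:48874783-48874783: cctggagagaAgccaccgcct

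The next 7 windows are those whose share was higher with the ADAR2 than with the ADAR1 domain, and the last 3 those whose share was lower with E-to-Q than with the wild-type domain. Both sets were singled out after their values were seen. All 3 of the last set have G on the 5′ side of the adenosine. This base also precedes 11 of the 49 positions that were higher with E-to-Q, and 18 of all 82.
Q575R, exon 3, chr19:48875672-48875672: gggccggcccAggccgcccgc
R77G, exon 2, chr19:48873462-48873462: cccttggggcAgacgccctga
E413G, exon 2, chr19:48874471-48874471: gccgaggatgAaagagaagct
V56V, exon 2, chr19:48873401-48873401: cagctctggtAgaagctggcc
Y484C, exon 2, chr19:48874684-48874684: ggctggggatAtcgacctgga
E400G, exon 2, chr19:48874432-48874432: acagaggaggAggaagatgag
H478R, exon 2, chr19:48874666-48874666: cagagggcccActtcaggggc
E465G, exon 2, chr19:48874627-48874627: ggagaagctgAgtcagaccca
E269G, exon 2, chr19:48874039-48874039: gaggcgtccgAggagaaggag
K430E, exon 2, chr19:48874521-48874521: tgctttcttgAaggcctgggt

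Along the message, editing was uneven. Q584R gained 60.5 ± 12.9 points over untransfected cells (SD over 22 deaminase libraries), and the next position in the gene, the synonymous S253S, gained 36.3 ± 21.8 points. E369E gained 32.8 ± 9.48 points, R526G 30.1 ± 22.4 points, T655T 26.1 ± 24.5 points and E492E 25.3 ± 13.0 points. These 6 were the positions with a mean gain over 20 points, which 1.51% of all listed positions had. The 5′ UTR position 48872469 gained 19.5 ± 18.8 points and K517R gained 17.9 ± 19.6 points. The lowest of the 82 gained 1.28 points, and the median was 5.18 points in PPP1R15A and 2.6 points over all listed positions. Q584R itself ranked 4 among the 382978 mean gains. It is counted in the 6 above, and its high share was the ground on which the gene was selected.

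**Figure D1:**
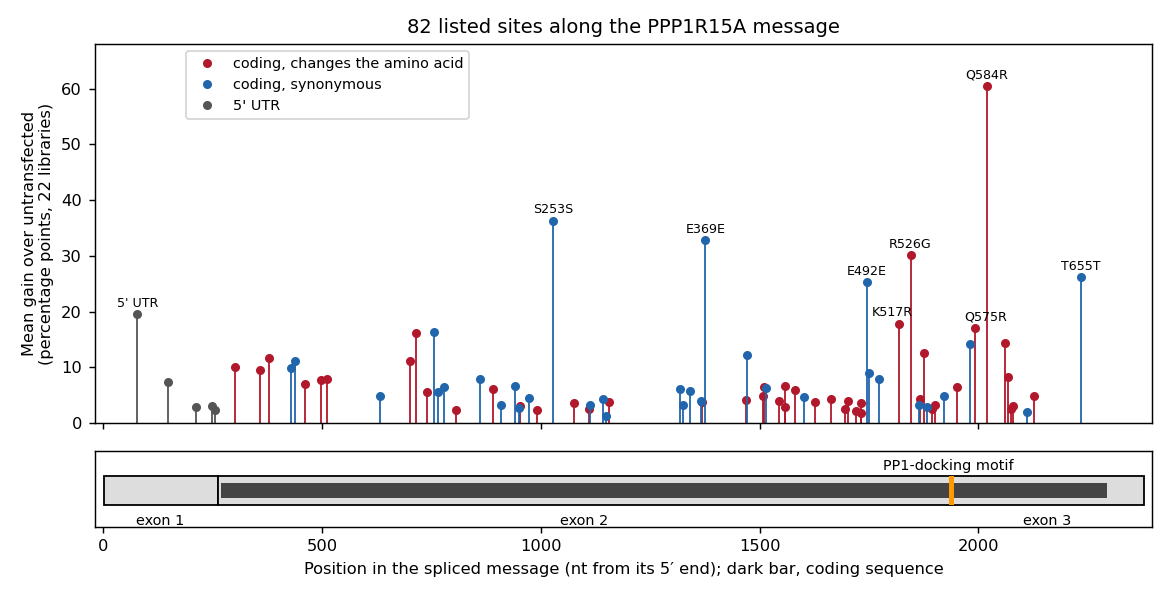
Mean gain in the share of G over untransfected cells (y axis, percentage points over 22 deaminase libraries) against position in the spliced PPP1R15A message (x axis, nt), 1 stem per listed position, coloured by coding effect; the lower track shows exons, coding sequence (dark) and the PP1-docking motif. Q584R stands at 60.5 points near the docking motif, and the other positions reach at most 36.3 points.

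Q584R lies in exon 3, the exon that codes for the part from just after the start of the PP1-docking motif to the C-terminus. The motif spans residues 555 to 558, so the glutamine lies 26 residues beyond its end. Exon 3 holds 11 of the 82 positions, including Q575R, A571A, Q598R and Q600R. Q575R, the closest of the glutamine positions to Q584R, gained 17.1 ± 12.2 points and A571A gained 14.1 ± 9.63 points. Q598R gained 14.4 ± 7.78 points and Q600R 8.30 ± 6.17 points. All 4 glutamine-to-arginine positions of the gene thus lie in this exon, with CAG as the codon.

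Among the MCP-ADAR2 fusions with E488Q, the share of G at Q584R was 79.3% and 60.3% with the NLS and 69.2% and 64.7% with the NES, in each case with and without MS2 adRNA in that order. The wild-type MCP-ADAR2 fusions had 49.4% and 41.3% with the NLS and 51.5% and 32.1% with the NES. All 4 E488Q fusions thus lay above all 4 wild-type fusions of ADAR2. The MCP-ADAR1 fusions with E1008Q had 75.2% and 70.8% with the NLS and 68.7% and 72.4% with the NES. Their wild-type counterparts had 49.5% and 49.7% with the NLS and 62.9% and 63.7% with the NES. Here too all 4 substituted fusions lay above the wild-type ones.

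Full-length ADAR2 (E488Q) had 68.4% G at Q584R with GluR2 adRNA and 76.3% without it, and wild-type full-length ADAR2 had 60.6% with it and 46.9% without it. Cas13b-ADAR2 DD (E488Q) had 45.3% with the gRNA and 71.8% without it. Over the 22 deaminase libraries the share therefore ran between 32.1% and 79.3% with a median of 63.3%, and the lowest and the highest library were both MCP-ADAR2 fusions. The share was listed at 0% in all 7 control columns. With 1 library per condition, no spread is available to say which neighbours in this order differ. Within single libraries Q584R was also ranked among all gains over the untransfected mean. Its rank ran between 9, in MCP-ADAR2 DD (E488Q)-NLS + MS2 adRNA, and 1668, in ADAR2 (E488Q) + GluR2 adRNA.

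**Figure D2:**
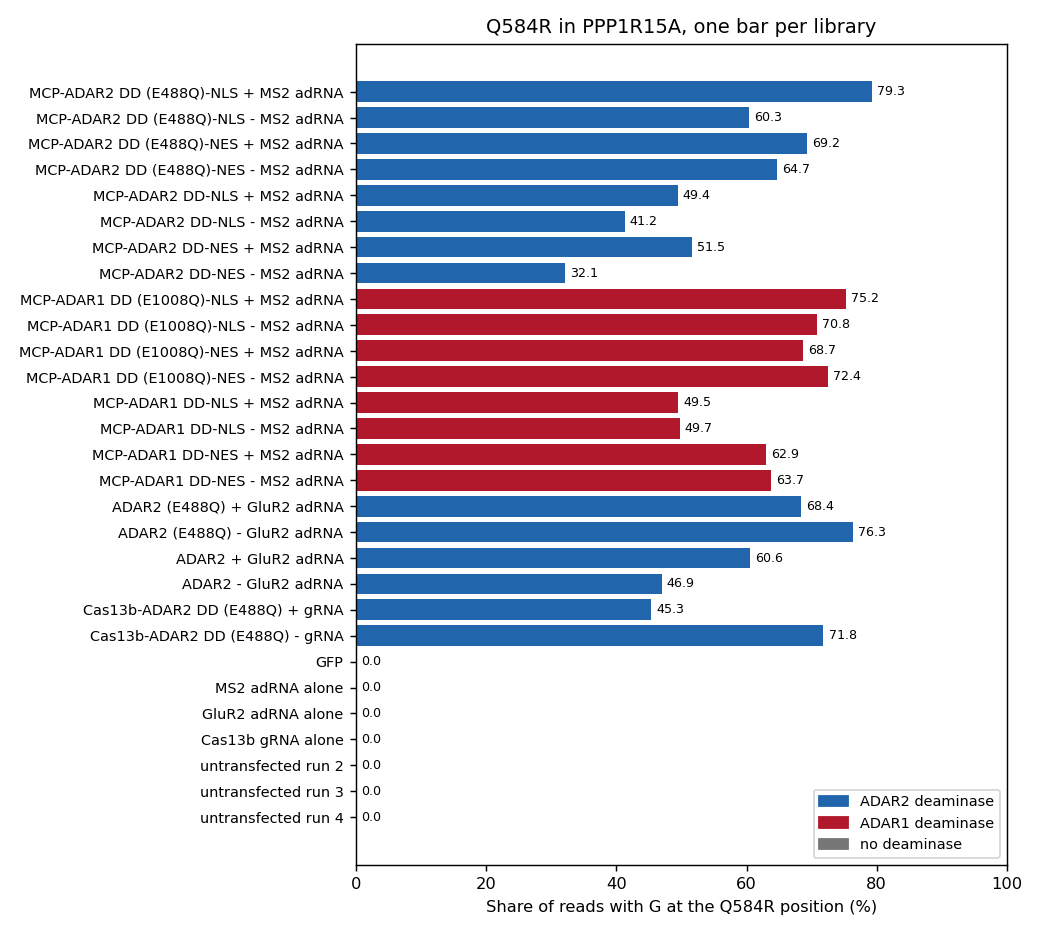
Share of reads with G at Q584R (x axis, %) in each of 22 deaminase libraries and 7 control columns (y axis), 1 bar per library, coloured by deaminase. The deaminase libraries sit between 32.1% and 79.3%, and every control column is at 0%.

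A call in a library means here that the authors' deposited table gives an adjusted p below 0.01 and that the share exceeds the untransfected mean. By the authors' deposited table, 381 of 1804 pairs of a PPP1R15A position and a deaminase library were called (21.1%), against 16.7% of such pairs over all listed positions. Nearly every listed position had such a p in some library, so a call in at least 1 library is no result. Q584R was called in all 22 libraries and E369E in 21. These were the positions called in 20 or more, a class that holds 0.442% of all listed positions. Since the gene was selected on the high share at Q584R, the place of Q584R in this class is no result. The counts of called pairs and positions given here include Q584R. Calls in 11 or more libraries were made at 9 positions (11.0%), against 6.63% of all listed positions. Calls in exactly 1 library were made at 25 positions (30.5%), against 36.5%. None of the 82 was called in a control column, against 0.00246% of all pairs of a listed position and a control column, and the highest share at any of them there was 5.71%.

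By the authors' deposited table, the number of called positions differed widely between libraries, and the percentage of all listed positions called in the same library stands beside it. Both numbers are given with and then without guide. MCP-ADAR2 DD (E488Q)-NLS had 13 and 10 called positions beside 9.94% and 7.32% of all listed positions, and MCP-ADAR2 DD (E488Q)-NES had 12 and 13 beside 11.2% and 9.21%. Wild-type MCP-ADAR2 DD-NLS had 4 and 4 beside 1.24% and 0.982%, and MCP-ADAR2 DD-NES had 6 and 3 beside 5.29% and 2.48%. All 4 E488Q fusions thus had more calls in the gene than the wild-type ones.

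MCP-ADAR1 DD (E1008Q)-NLS had 37 and 38 called positions beside 28.9% and 23.5% of all listed positions, and MCP-ADAR1 DD (E1008Q)-NES had 36 and 44 beside 51.1% and 59.2%. Wild-type MCP-ADAR1 DD-NLS had 13 and 13 beside 7.45% and 5.35%, and MCP-ADAR1 DD-NES had 27 and 36 beside 26.4% and 30.3%. The NES fusions with E1008Q were the MCP-ADAR1 fusions in which the percentage called in the gene, 43.9% and 53.7%, lay below that of the whole table. ADAR2 (E488Q) had 24 and 4 called positions beside 32.7% and 6.72%, and wild-type full-length ADAR2 had 6 and 2 beside 4.85% and 1.5%. Cas13b-ADAR2 DD (E488Q) had 7 and 29 beside 12.9% and 29.5%. The depth behind these counts is unknown.

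**Figure D3:**
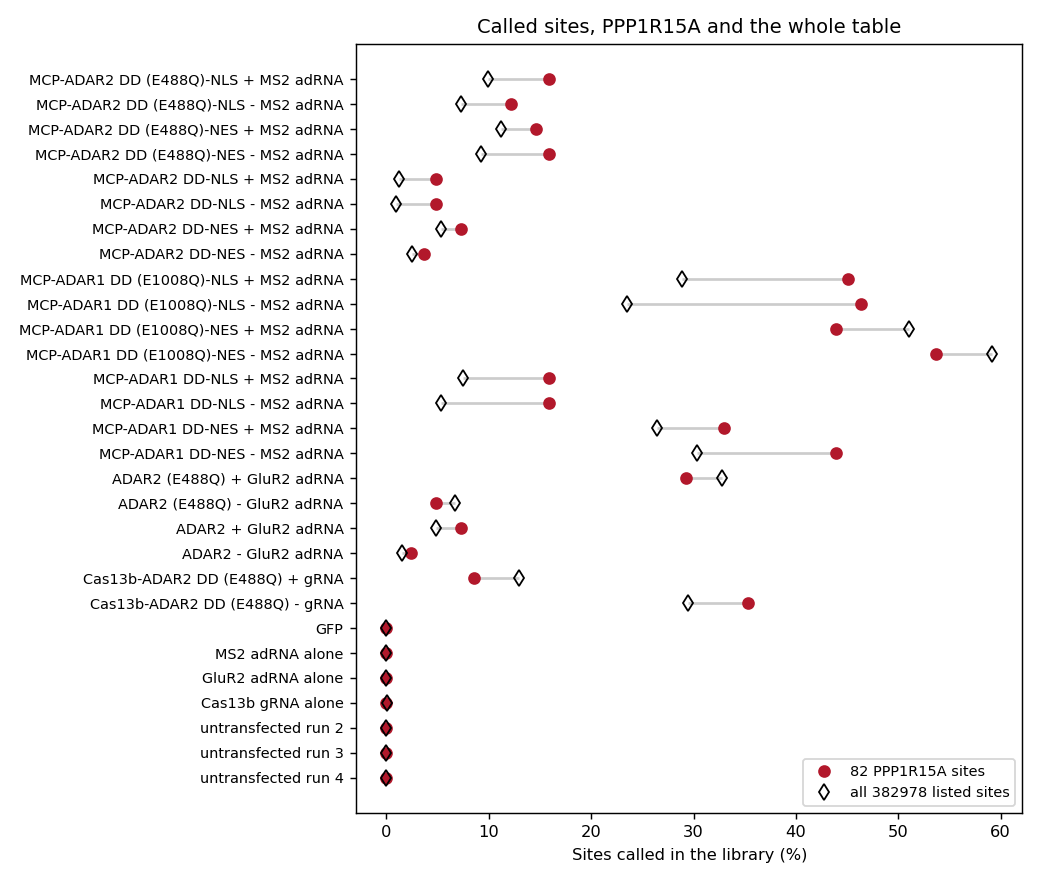
Percent of positions called (x axis) in each library (y axis) among the 82 PPP1R15A positions (filled circles) and among all 382978 listed positions (open diamonds). PPP1R15A ran between 2.44% and 53.7% in the deaminase libraries and was at 0% in the control columns.

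The substitution of glutamate by glutamine in the deaminase domain is known to raise activity, and its effect on PPP1R15A was tested over the 16 MCP fusions. Shares were fitted on the arcsine square root scale with limma for enzyme, variant, localisation and guide together, with Benjamini-Hochberg adjustment over all 382978 positions. With E-to-Q, the share was higher at 49 of the 82 positions and lower at 3 at an adjusted p below 0.05, and 30 did not pass. Over all listed positions 39.7% were higher and 0.720% lower. The median difference was 3.34 points in PPP1R15A and 1.57 points over all listed positions. Of the 49 higher positions, 25 would change an amino acid and 20 are synonymous coding positions.

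At Q584R the share had a lowest value of 60.3%, a median of 70.0% and a highest of 79.3% in the 8 E-to-Q fusions, against 32.1%, 49.6% and 63.7% in the 8 wild-type fusions. The 2 sets overlapped only through the wild-type MCP-ADAR1 DD-NES libraries and the lowest of the substituted ones. The mean difference over 8 matched pairs was 20.1 ± 9.45 points (SD), positive in all 8 pairs, with an adjusted p of 0.000572 by limma. Flipping the signs of the 8 pairs in an exact permutation test, two-sided, gave p = 0.0078125, the smallest it can give.

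The largest difference belonged to E492E, with a lowest share of 33.6%, a median of 38.7% and a highest of 44.7% in E-to-Q fusions, against 7.47%, 13.5% and 19.0% in wild-type fusions. These did not overlap, and the difference was 25.2 ± 6.17 points over 8 pairs (limma adjusted p = 2.59e-05). At T655T it was 21.4 ± 10.9 points (limma adjusted p = 5.00e-05) and at R526G 18.8 ± 8.32 points (limma adjusted p = 0.000431). The 5′ UTR position 48872469 differed by 15.9 ± 7.78 points and S253S by 14.5 ± 6.61 points, with limma adjusted p of 0.00114 and 0.00181. Each of these was higher with E-to-Q in all 8 pairs. Of the 8 leading positions, 2 did not pass. E369E averaged 28.8 ± 7.24% in E-to-Q fusions and 31.7 ± 9.41% in wild-type fusions (SD, n = 8 each; limma adjusted p = 0.651), and K517R averaged 22.4 ± 20.8% and 24.5 ± 21.1% (limma adjusted p = 0.583).

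The 3 positions that were lower with E-to-Q were E465G, E269G and K430E. All 3 recode a charged residue, as do most of the 45 recoding positions of the gene. Among those 45, arginine to glycine had 10, glutamate to glycine 8 and lysine to arginine 7. E465G averaged 2.72 ± 3.04% in E-to-Q fusions and 9.18 ± 9.62% in wild-type fusions (SD, n = 8 each), with a limma adjusted p of 0.00850. E269G averaged 2.13 ± 1.99% and 7.16 ± 6.05% (limma adjusted p = 0.0133), and K430E 1.15 ± 1.25% and 6.16 ± 6.96% (limma adjusted p = 0.00742). Their high values came from the wild-type MCP-ADAR1 fusions. E465G there had 14.6% and 11.7% with the NLS and 22.0% in both NES libraries, whereas E1008Q fusions of ADAR1 had 3.52% to 6.56% and all 8 ADAR2 fusions 0% to 2.26%.

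The domain of ADAR2 gave lower shares than that of ADAR1 at most listed positions. At an adjusted p below 0.05 by limma, 58 of the 82 positions were lower and 7 higher with ADAR2, and 17 did not pass. Over all listed positions 66.0% were lower and 2.6% higher. The median difference was -5.40 points in PPP1R15A and -2.68 points over all listed positions. Nearly every listed position had a low adjusted p in some library of the authors' deposited table. MCP-ADAR1 fusions had 5.35% to 59.2% of all listed positions called, against 0.982% to 11.2% in MCP-ADAR2 fusions. The listing thus bears on the direction of the majority, and its part was not tested. This limit also applies to the E-to-Q contrast. T655T had a lowest share of 2.48%, a median of 7.59% and a highest of 19.7% in the 8 ADAR2 fusions, against 30.6%, 56.4% and 72.7% in the 8 ADAR1 fusions. The groups did not overlap, and the difference was -43.9 ± 11.3 points over 8 pairs (limma adjusted p = 3.64e-07).

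K517R and R526G, which lie 9 codons apart, showed the same separation. K517R averaged 4.33 ± 3.70% with ADAR2 and 42.6 ± 5.61% with ADAR1 (SD, n = 8 each; limma adjusted p = 6.24e-07). R526G averaged 18.7 ± 11.2% with ADAR2 and 56.1 ± 11.5% with ADAR1 (limma adjusted p = 2.01e-06). The 5′ UTR position 48872469 averaged 10.6 ± 9.14% with ADAR2 and 41.5 ± 12.0% with ADAR1 (limma adjusted p = 6.18e-06). S253S averaged 29.3 ± 10.3% and 59.5 ± 10.2% (limma adjusted p = 4.50e-06). Each of these was lower with ADAR2 in all 8 pairs. S253S was the one whose groups overlapped, with a highest ADAR2 share of 46.0% and a lowest ADAR1 share of 43.1%. The groups of the 5′ UTR position were barely apart, with a highest ADAR2 share of 24.78% and a lowest ADAR1 share of 24.85%.

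Q584R, E369E and E492E stood apart from these positions in that the enzyme contrast did not pass. At Q584R the share had a lowest value of 32.1%, a median of 55.9% and a highest of 79.3% with ADAR2, against 49.5%, 66.2% and 75.2% with ADAR1, so the groups overlapped widely. The difference was -8.15 ± 11.1 points over 8 pairs, negative in 6 of them, with an adjusted p of 0.0504 by limma and p = 0.0546875 in the same exact permutation test. This call rests on the settings. The adjusted p was 0.0345 on untransformed shares, and 0.0133, 0.0237 and 0.0308 without MCP-ADAR2 DD (E488Q)-NLS + MS2 adRNA, MCP-ADAR1 DD (E1008Q)-NES + MS2 adRNA and MCP-ADAR1 DD-NLS + MS2 adRNA in turn. E369E averaged 30.1 ± 8.99% with ADAR2 and 30.5 ± 8.04% with ADAR1 (limma adjusted p = 0.919). E492E averaged 26.3 ± 16.0% with ADAR2 and 26.1 ± 12.0% with ADAR1 (limma adjusted p = 0.857). These p-values do not show that the domains act alike at the 3 positions.

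At 7 positions the share was higher with ADAR2, and 6 of them recode. Q575R had a lowest share of 11.5%, a median of 30.3% and a highest of 44.7% with ADAR2, against 8.46%, 11.9% and 16.3% with ADAR1, and was higher in all 8 pairs by 17.5 ± 11.2 points (limma adjusted p = 0.000537). It lies 9 codons before Q584R with the same CAG triplet. R77G averaged 11.9 ± 5.27% with ADAR2 and 2.52 ± 1.16% with ADAR1, with no overlap (SD, n = 8 each; limma adjusted p = 9.04e-05). E413G averaged 9.15 ± 7.89% and 0.832 ± 0.823% (limma adjusted p = 0.000299), and V56V 12.3 ± 11.2% and 4.47 ± 3.60% (limma adjusted p = 0.0119). Y484C, E400G and H478R averaged 5.51%, 4.96% and 3.56% with ADAR2, against 1.80%, 1.78% and 0.663% with ADAR1, with limma adjusted p of 0.0207, 0.00836 and 0.00715. None of the 7 has A on the 5′ side of the adenosine. This base precedes 22 of the 58 positions that were lower with ADAR2, 8 of the 17 that did not pass and 30 of all 82. The 22 of 58 are thus near the share of the whole gene, and a link to the neighbouring base was not tested.

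**Figure D4:**
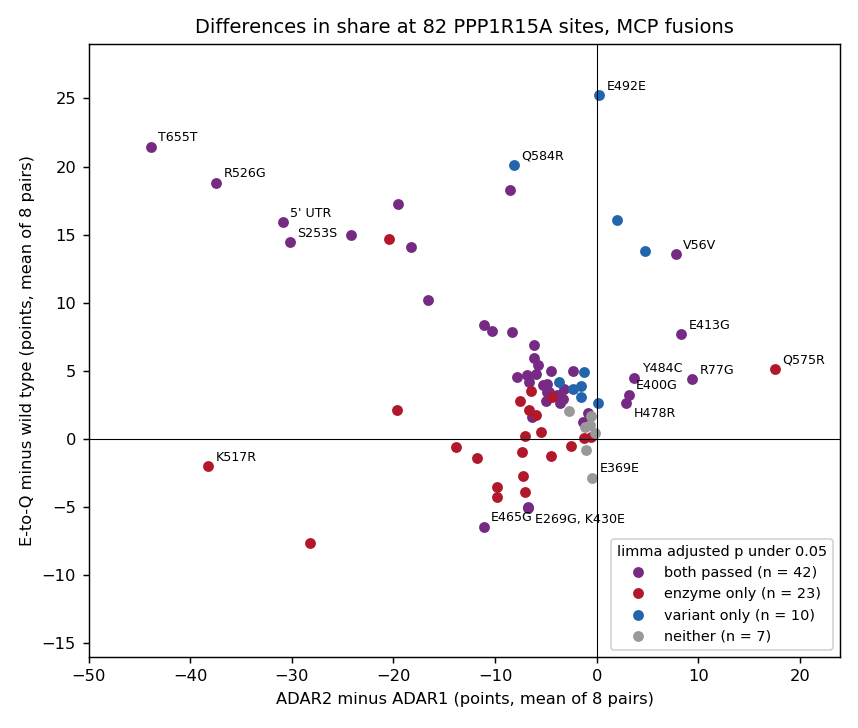
Difference in share between E-to-Q and wild-type fusions (y axis, points) against the difference between ADAR2 and ADAR1 fusions (x axis, points), 1 point per PPP1R15A position, each the mean of 8 pairs, coloured by which contrast passed limma at an adjusted p below 0.05. Both contrasts passed at 42 positions, the enzyme contrast alone at 23, the variant contrast alone at 10 and neither at 7. Matching joint counts over all listed positions are not given here, so no reading is drawn from these. Of all listed positions, 39.7% were higher and 0.72% lower with E-to-Q. With ADAR2, 2.6% were higher and 66% lower.

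Whether the substitution acts differently in the 2 domains was tested as an interaction of enzyme and variant, which passed at 6 of the 82 positions by limma and at 3.69% of all listed positions. Q584R was not among the 6, namely the 5′ UTR position 48872539, V56V, E81G, E413G, K430R and Y484C.

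NLS fusions and NES fusions were compared next, since these signals send the enzyme into or out of the nucleus. At an adjusted p below 0.05 by limma, 0 of the 82 positions differed, against 3.80% of all listed positions, of which nearly all were lower with the NLS. At an unadjusted p below 0.05 limma had 2 of the 82, against 115541 of all 382978 listed positions, and the smallest adjusted p was 0.0952 at E438G. Without MCP-ADAR2 DD (E488Q)-NLS + MS2 adRNA, 1 position passed, which was E438G. The median difference was -0.43 points in PPP1R15A and -1.46 points over all listed positions. At Q584R the share had a lowest value of 41.3%, a median of 55.0% and a highest of 79.3% with the NLS, against 32.1%, 64.2% and 72.4% with the NES. The difference was -1.23 ± 9.40 points over 8 pairs (limma adjusted p = 0.850).

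The mean share over the other 81 positions is given for each construct with and then without MS2 adRNA. In E488Q fusions of ADAR2 it was 9.23% and 5.84% with the NLS and 7.22% and 7.06% with the NES. In wild-type ADAR2 fusions it was 2.97% and 3.80% with the NLS and 3.75% and 2.11% with the NES, so the NLS and NES values of either ADAR2 variant overlapped. In E1008Q fusions of ADAR1 it was 14.9% and 15.1% with the NLS and 13.4% and 14.8% with the NES. In wild-type ADAR1 fusions it was 7.91% and 7.81% with the NLS and 11.2% and 12.8% with the NES. The mean over all listed positions in ADAR2 fusions was 3.10% and 2.56% with the NLS against 3.29% and 2.92% with the NES for E488Q, and 0.938% and 0.991% against 1.98% and 1.24% for the wild type. In ADAR1 fusions it was lower with the NLS for both variants, at 7.09% and 6.05% against 10.4% and 11.4% for E1008Q, and at 2.80% and 2.33% against 5.87% and 6.28% for the wild type. Whether the effect of the signal differs between E-to-Q and wild type was tested as an interaction. By limma it passed at 0 of the 82 positions and at 0.00183% of all listed positions. At an unadjusted p below 0.05 limma had 1 of the 82. The count over all listed positions at that unadjusted threshold is not given here, so no reading is drawn from it.

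The MS2 adRNA, whose target the labels do not name, left 0 of the 82 positions past an adjusted p of 0.05 by limma, against 0.000783% of all listed positions. At an unadjusted p below 0.05 it left 0 of the 82, against 11666 of all 382978 listed positions. At Q584R the share averaged 63.2 ± 11.9% with it and 56.9 ± 14.5% without it (SD, n = 8 each). The difference was 6.35 ± 8.75 points and positive in 5 of 8 pairs, with an adjusted p of 1 by limma and p = 0.0859375 in the same exact permutation test.

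Full-length ADAR2, which keeps its own double-stranded RNA binding domains, and the Cas13b fusion are set beside the MCP-ADAR2 fusions without a test, because they differ in several features at once. S253S had 9.66% and 4.02% in full-length ADAR2 (E488Q) and 6.25% and 4.08% in wild-type full-length ADAR2, with and without guide. In MCP-ADAR2 fusions it ran between 31.9% and 46.0% with E488Q and between 19.9% and 21.1% with the wild type. Q575R was likewise low in full-length ADAR2, at 3.19% to 5.38%, against 11.5% to 44.7% in MCP-ADAR2 fusions. E413G had 0% to 1.67% in full-length ADAR2 and 13.8% to 19.3% in MCP-ADAR2 fusions with E488Q.

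H478R ran the other way in part. It had 16.9% and 8.89% in full-length ADAR2 (E488Q), against 4.23% to 9.09% in MCP-ADAR2 fusions with E488Q. The E488Q library without guide thus lay inside that range. In wild-type full-length ADAR2 it had 15.5% and 7.37%, against 0% to 2.14% in wild-type MCP-ADAR2 fusions. E369E had 56.0% in ADAR2 (E488Q) + GluR2 adRNA, its highest share, and 46.3% in ADAR2 + GluR2 adRNA. Without the guide it had 36.7% with E488Q and 32.1% with the wild type. These 2 lay inside the MCP-ADAR2 ranges, 24.7% to 42.5% with E488Q and 15.2% to 39.6% with the wild type. Q584R, at 46.9% to 76.3% in full-length ADAR2, fell inside the range of the MCP-ADAR2 fusions when both variants were pooled. Within the wild type, ADAR2 + GluR2 adRNA had 60.6%, above the 32.1% to 51.5% of the MCP-ADAR2 fusions. The other full-length libraries lay inside the range of their own variant. The Cas13b fusion had 24.1% with and 39.8% without gRNA at S253S, against 31.9% to 46.0% in MCP-ADAR2 fusions with E488Q. At Y484C it had 0% with and 1.69% without gRNA, below the 7.49% to 13.4% of those fusions.

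**Figure D5:**
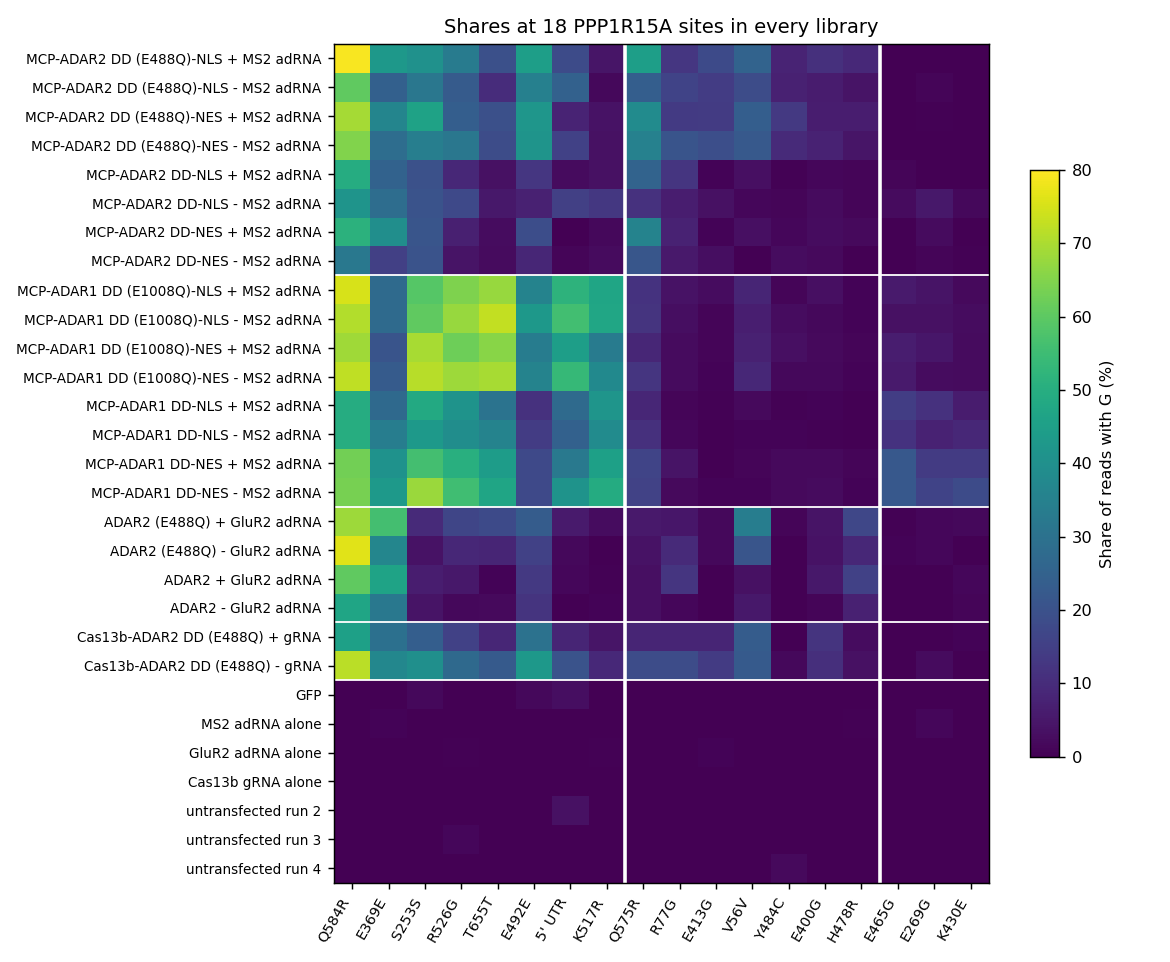
Share of reads with G (colour, %) at 18 PPP1R15A positions (columns) in 22 deaminase libraries and 7 control columns (rows). The left block holds the 8 positions of highest mean gain, the middle block the 7 that were higher with ADAR2 than with ADAR1, and the right block the 3 that were lower with E-to-Q than with wild type; Q584R reaches 79.3%, while E465G peaks at 22.0% in wild-type MCP-ADAR1 fusions.

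The adenosines that were listed differed from those of the same message that were not. The transcript has 552 adenosines, of which the 82 listed make up 14.9%. G followed the adenosine at 73.2% of listed and 41.9% of unlisted ones, and G preceded it at 22.0% of listed and 46.0% of unlisted ones. Of the 8 adenosines within UAG, 3 were listed, of the 74 within AAG 23, of the 74 within CAG 21 and of the 101 within GAG 13. The share listed was 15.7% in exon 3, 15.1% in exon 2 and 11.4% in exon 1, and 0 of the 23 adenosines of the 3′ UTR were listed, where coverage is unknown. Predicted folding gave a median probability of being unpaired of 0.655 for listed and 0.767 for unlisted adenosines, and of 0.703 for Q584R. These are descriptions of letters and of a predicted fold, and nearly all listed positions had a call in some library.

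In the 5′ UTR there are 2 upstream AUG codons, which open reading frames of 22 and 26 codons that both end before the main start codon. The leading 5′ UTR position, 48872469, lies in the first frame, and position 48872603, with a mean gain of 2.87 points, lies in the second. Neither of the 2 AUG adenosines was listed. The other 5′ UTR positions, 48872539, 48872640 and 48872647, gained 7.42, 2.97 and 2.38 points.

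Across the 22 deaminase libraries, the positions of other genes whose shares were closest to those of Q584R lay in 3′ UTRs. The measure was the mean absolute difference in share over 22 libraries, computed for 349161 positions in exons of exactly 1 gene. It was 7.38 points for a position of POFUT2 (chromosome 21, 45265185), 8.06 points for TXNL4B (chromosome 16, 72085322) and 9.55 points for SELENOT (chromosome 3, 150627664). It was 9.58 points for PRKAR2A (chromosome 3, 48749558) and 10.1 points for RPL7L1 (chromosome 6, 42888438). The last 2 differ from Q584R in that the untransfected mean was already 43.3% and 26.0%. Likeness here is measured over libraries that share their constructs.

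Other genes of the integrated stress response and of the related ER stress response were also edited. Of 29 genes taken as the eIF2 subunits, their kinases and exchange factor, the phosphatase subunits, the transcription factors and their targets, and the ER stress genes HSPA5, XBP1, ATF6, ERN1 and DNAJC3, 26 had listed positions, 2253 in all, and EIF2AK3, CHAC1 and ERN1 had none. With E-to-Q, 675 of these positions were higher and 14 lower by limma at an adjusted p below 0.05, against 39.7% higher and 0.720% lower of all listed positions. With ADAR2, 48 were higher and 1558 lower than with ADAR1, against 2.6% higher and 66.0% lower of all listed positions. With the NLS 0 were higher and 71 lower, which is 3.15% of the list, against 3.80% of all listed positions in either direction. Their median best position gained 17.5 points. None of these genes had a position that gained as much as Q584R. The gene was selected on the high share at Q584R, so no conclusion is drawn from this. The highest were 3′ UTR positions of EIF2S3, the gamma subunit of eIF2, with 49.96 points, of SESN2, a stress-induced inhibitor of mTORC1 signalling, with 49.3 points, and of EIF2AK2, the kinase PKR, with 49.2 points. TRIB3, a pseudokinase induced by ATF4, reached 34.8 points and EIF2B1, the alpha subunit of the exchange factor eIF2B, 32.2 points. PPP1R15B, the constitutive counterpart of PPP1R15A, had 97 listed positions and at most 16.2 points, and the catalytic subunit PPP1CA reached 23.6 points at K109R.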

How the data were processed

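Per the labels' protocols, poly(A) RNA of HEK 293T cells was harvested 60 h after transfection and read in pairs of 100 bp. STAR 2.6.0c, SAMtools, bcl2fastq 2.18.0.12 and the build GRCh38.p12 are named, without settings, in the submitters' processing notes. The authors deposited a table of shares, each a fraction (0 to 1) of reads with the edited base, and a table of adjusted p-values for the same positions. The test behind the deposited p-values is not given in the sources used here. At 382976 of 382978 positions some library had an adjusted p below 0.01, so the list holds selected positions. One column of shares carries no sample name and was not used (1 in all), so run 1 of the untransfected library was not analysed here. Its other runs are sequencing repeats of 1 library. Read depth is unknown, so no counting interval or floor is given.

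Positions were placed with GENCODE release 29 in Python 3.11.15 (scipy 1.17.1, pandas 2.3.3, numpy 2.4.6, matplotlib 3.10.9), and pairing was predicted with ViennaRNA 2.7.2 (window 150 nt, span 100 nt). The 16 MCP fusions were fitted with limma 3.58.1 (R 4.3.3, intensity trend) on the arcsine of the square root of each share, with 4 main effects, 11 residual degrees of freedom and a threshold of 0.05. These degrees of freedom hold interactions as well as noise between libraries, and p-values describe this set of constructs. The fit was tested on simulated data. Alternatives were untransformed and logit shares, no trend, a minimum mean share of 1%, added interactions, other call thresholds, and leaving out each library in turn. Positions named are Q584R, those called in at least 20 libraries, the 8 of highest mean gain, up to 4 per contrast with the largest difference of the same sign in at least 7 of 8 pairs, the 5 positions of other genes closest to Q584R, and the 5 stress response genes with the highest best position. Members and lists were chosen with earlier results of these data known.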

Additional observations from a re-analysis of the deposited data

Results flagged for a closer look

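The effect of E-to-Q differed between the ADAR2 and ADAR1 fusions at 6 of the 82 positions, by the interaction of enzyme and variant in limma with adjustment over all listed positions, of which 3.69% passed. At an unadjusted p below 0.05 by limma there were 27 of the 82. The count over all listed positions at that threshold is not given here, so no reading is drawn from it. At the 5′ UTR position 48872539 the share averaged 0.369 ± 0.739% with E488Q and 1.08 ± 1.23% with wild-type ADAR2, and 36.2 ± 5.17% with E1008Q and 6.05 ± 1.36% with wild-type ADAR1 (SD, n = 4 each; limma adjusted p = 0.00463). E81G averaged 1.66 ± 0.765% with E488Q and 1.14 ± 1.03% with wild-type ADAR2, and 27.9 ± 1.59% with E1008Q and 8.08 ± 4.06% with wild-type ADAR1 (limma adjusted p = 0.0419). At both positions the higher share with the substitution was that of the ADAR1 domain. V56V, E413G and Y484C had the larger difference in ADAR2, with averages of 22.5%, 16.3% and 9.63% with E488Q and 2.00%, 2.02% and 1.40% with wild-type ADAR2 (limma adjusted p of 0.0419, 0.0375 and 0.0300). With ADAR1 they averaged 7.75%, 1.39% and 2.17% with E1008Q and 1.18%, 0.270% and 1.42% with the wild type. K430R averaged 6.28 ± 1.60% with E488Q and 0.223 ± 0.446% with wild-type ADAR2, against 6.19 ± 0.683% with E1008Q and 11.3 ± 5.38% with wild-type ADAR1 (limma adjusted p = 0.0128).

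At E492E the share with MS2 adRNA minus that without it was 6.49 ± 4.69 points in ADAR2 fusions and -2.93 ± 2.79 points in ADAR1 fusions (SD, n = 4 pairs each), positive in all pairs of one and negative in all pairs of the other. Some pairs were nearly equal, with 17.72% with and 17.73% without MS2 adRNA in MCP-ADAR1 DD-NES. MCP-ADAR2 DD (E488Q)-NES had 42.0% and 41.6%. The difference between the 2 domains was not tested. It was sought over 82 positions and several contrasts.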

How the results depend on the processing

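Over untransformed or logit shares, no trend, a minimum mean share of 1% and an added interaction, 50 to 54 positions differed by variant, 64 to 67 by enzyme and 0 by localisation or guide. Leaving out each library in turn gave 45 to 53 by variant, 63 to 68 by enzyme, 0 to 1 by localisation and 0 by guide. The enzyme contrast at Q584R, with an adjusted p of 0.0504, passed on untransformed shares (0.0345), with the interaction added (0.0444) and at a minimum mean share of 1% (0.0321), and ran between 0.0133 and 0.112 when a library was left out; the cause was not tested. Its localisation contrast changed sign, without passing, without MCP-ADAR1 DD-NES - MS2 adRNA and without MCP-ADAR1 DD-NLS + MS2 adRNA (adjusted p 0.497 to 0.995 over all libraries left out). The variant contrast at Q584R passed throughout (0.000256 to 0.00185). The enzyme contrast at E492E changed sign on untransformed shares (0.947) and in some fits without 1 library (0.538 to 0.997), as did that at E369E (0.582 to 0.962), and neither passed in any. Call totals were 479 and 283 at an adjusted p below 0.05 and 0.001 in the authors' deposited table, and 381 with GFP in place of untransfected cells or without any 1 untransfected run. The alternative transcript choice changed nothing in the number of positions, and the interaction counts and the stress response list were not refitted under alternatives. No pairing by replicate was possible because each condition has 1 library, so no replicate number pairs samples of the groups. The 8 pairs of each contrast match constructs on the other factors and are not replicates. This limit also holds for the exact permutation tests over these pairs. Unknown depth limits all low shares.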

Other observations

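A few positions stood out in single libraries and were picked after their values were seen. D367G, which recodes an aspartate to glycine near E369E, had 42.0% G in ADAR2 (E488Q) + GluR2 adRNA and 15.7% in ADAR2 (E488Q) - GluR2 adRNA, and its median over the 22 deaminase libraries was 0.768%. K281R had 24.0% and 8.57% in the same 2 libraries, with a median of 1.38%. S366S had 20.3% in ADAR2 (E488Q) + GluR2 adRNA and at most 8.33% in any other library. In that library 32.7% of all listed positions were called by the authors' deposited table, and the part of this in the values was not tested. Of the 82 positions, 11 had their highest share in it, 14 in MCP-ADAR1 DD-NES - MS2 adRNA and 14 in MCP-ADAR1 DD (E1008Q)-NES - MS2 adRNA, and none in a wild-type MCP-ADAR2 fusion.

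The codon of residue 430 holds 2 neighbouring adenosines. K430E, at the first base of the codon, was at most 2.63% in all E-to-Q MCP fusions, whereas K430R, at the second base, averaged 6.28% in the E488Q fusions of ADAR2 and 6.19% in the E1008Q fusions of ADAR1. In the wild-type ADAR1 fusions the values lay close together. K430E had 6.06% and 8.79% with the NLS and 13.8% and 18.3% with the NES, with and then without MS2 adRNA, and K430R had 7.22% and 7.73% with the NLS and 11.3% and 18.9% with the NES. The difference between the 2 positions was not tested.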
